A study of Rattus norvegicus with 16 samples.

Results

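The 28 genes described here make, sense, import, store or export cholesterol, and they were followed on arrays of 16 rat ovaries. The animals were females of the Jcl:SD stock of Sprague-Dawley rats. They were taken by gene symbol, each as its brightest array probe, and all 28 were among the 20227 features tested. They comprised 18 enzymes of cholesterol synthesis, 3 genes of sterol sensing, 4 of uptake and intracellular transport, 2 of cholesteryl ester storage and release, and the exporter Abca1.

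The study asked what olaparib, an inhibitor of poly(ADP-ribose) polymerase, does to the ovarian transcriptome of wild-type (WT) and BRCA1+/- rats. Each of the 4 groups (WT vehicle, WT olaparib, BRCA1+/- vehicle, BRCA1+/- olaparib) held 4 animals, with 1 single-colour Agilent array per ovary sample. Olaparib was given under the skin at 50 mg/kg once a day for 14 days, starting at an age of 3 weeks, and tissue was collected 24 h past the final dose. The vehicle, its schedule and the nature of the BRCA1 allele are not given in the sources used here. An array value is called the log2 signal below: the log2 processed spot intensity minus the array's 75th percentile. A difference of 1 is a 2-fold change, and levels of different genes are not compared because they come from different probes. Whole ovaries were measured, so fewer cells of a type and less RNA per cell cannot be told apart.

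Cells build cholesterol from acetyl-CoA through mevalonate, squalene and lanosterol. When sterols in the endoplasmic reticulum run low, SCAP escorts the transcription factor SREBP2 (gene Srebf2) to the Golgi, where it is released to switch on the synthesis and uptake genes, whereas INSIG1 retains the complex when sterols are plentiful. Theca, luteal and granulosa cells of the ovary use cholesterol as the raw material of steroid hormones, take it from lipoproteins through the HDL receptor SCARB1, and keep a reserve as cholesteryl esters.

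The proximal promoters of the members are shown first because most of the synthesis genes varied together. RefSeq promoter windows of the GRCr8 assembly, 250 bases before to 50 bases after the start, were matched for 22 of the 28 members. The letters CCAAT, on either strand, occurred in 12 of the 15 matched synthesis enzymes (80.0%), against 37.7% of all 27457 windows and 37.5% of the 12251 windows of tested genes. CCAAT is the core of the site bound by NF-Y, a factor known to act beside SREBP2. The 250 bases before the start are printed for Hmgcs1 (plus strand, chr2:53382054-53382303), Msmo1 (plus strand, chr16:29746863-29747112), Nsdhl (plus strand, chrX:155817110-155817359), Insig1 (minus strand, chr4:8057770-8058019) and Abca1 (minus strand, chr5:72596474-72596723), each 5′ to 3′ in the direction of the gene. Capitals mark CCAAT, which reads ATTGG on the other strand, and the letters TCACNCCA.
Hmgcs1: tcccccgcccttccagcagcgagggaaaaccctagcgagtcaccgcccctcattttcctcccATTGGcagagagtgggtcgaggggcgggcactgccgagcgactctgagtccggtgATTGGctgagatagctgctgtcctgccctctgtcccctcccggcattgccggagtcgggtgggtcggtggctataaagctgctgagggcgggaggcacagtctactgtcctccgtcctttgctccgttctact
Msmo1: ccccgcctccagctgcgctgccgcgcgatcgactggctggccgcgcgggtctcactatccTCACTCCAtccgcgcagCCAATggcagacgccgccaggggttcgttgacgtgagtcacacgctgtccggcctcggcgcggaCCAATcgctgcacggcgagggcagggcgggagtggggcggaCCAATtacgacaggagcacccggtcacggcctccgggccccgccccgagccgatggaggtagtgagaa
Nsdhl: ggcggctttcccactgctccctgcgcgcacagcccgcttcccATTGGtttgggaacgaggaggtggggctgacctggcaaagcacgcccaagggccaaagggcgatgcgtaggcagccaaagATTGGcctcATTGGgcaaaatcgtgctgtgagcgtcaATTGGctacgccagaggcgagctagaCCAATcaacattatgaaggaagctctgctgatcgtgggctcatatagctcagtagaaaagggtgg
Insig1: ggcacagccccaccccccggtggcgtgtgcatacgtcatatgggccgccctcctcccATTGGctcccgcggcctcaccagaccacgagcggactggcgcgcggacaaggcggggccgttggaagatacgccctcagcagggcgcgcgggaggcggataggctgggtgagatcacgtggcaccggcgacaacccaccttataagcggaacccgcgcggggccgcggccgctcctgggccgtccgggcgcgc
Abca1: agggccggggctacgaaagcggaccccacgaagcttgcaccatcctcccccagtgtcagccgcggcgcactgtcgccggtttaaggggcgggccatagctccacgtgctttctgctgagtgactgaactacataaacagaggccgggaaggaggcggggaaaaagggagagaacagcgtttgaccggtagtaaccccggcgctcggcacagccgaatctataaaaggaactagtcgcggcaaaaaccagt
These stretches held 2 copies of CCAAT in Hmgcs1, 3 in Msmo1, 5 in Nsdhl, 1 in Insig1 and 0 in Abca1. Among members not printed, the synthesis enzymes Acat2, Cyp51 and Dhcr7 held 0 copies and the lysosomal carrier gene Npc2 held 3. Whether the copies go with shared variation was not tested. The longer sterol response letters TCACNCCAC were in 0 of 22 member windows and in 1.13% of all windows. The shorter form TCACNCCA, searched after the longer one gave none and contained in it, was in 2 members, Msmo1 and Srebf2, against 3.91% of all windows. The GC box GGGCGG was in 20 of 22 members (90.9%), against 34.9% of all windows and 58.0% of those of tested genes. The E-box CACGTG was in 4 members (Abca1, Insig1, Sc5d and Scap) and 6.65% of all windows. The exact letters of the DR4 repeat bound by the oxysterol receptors LXR (AGGTCA, any 4 bases, AGGTCA) were in 0 of 22 members and 1 of 27457 windows. A search for letters this rare cannot tell whether a DR4 site with other letters is present. All motifs were searched on both strands, and a match describes letters only.

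The quality of the arrays bears on all values. The 75th percentile of the processed signal lay between 202 and 566 across arrays, 55.5% to 60.7% of probes were well above background, and no spot was saturated. All 28 members were well above background on all 16 arrays. The probe for Brca1 itself read -0.91 to 0.17 (median -0.72) in 8 WT ovaries and -1.45 to -0.37 (median -0.89) in 8 BRCA1+/- ovaries, which overlap. Whether that probe lies in the altered part of the allele is not known here. Markers of the labelled tissue were present: all 8 granulosa and 7 theca genes listed were tested. They were well above background on all 16 arrays, except Cyp19a1 (15 arrays). The theca gene Star was far lower on WT olaparib 3 than on the other arrays, as given below. A list of 11 tested oviduct and ciliated epithelium markers, among them Foxj1 and Tekt1, had a positive score on 6 arrays (WT olaparib 1 and 3, BRCA1+/- vehicle 3 and 4, BRCA1+/- olaparib 3 and 4; 1.16 to 3.45) and lay between -2.13 and -0.80 on the other 10. A score is the mean log2 signal of a list after centring each gene over the 16 arrays. The groups sat in fixed columns of the slides, so column position and group cannot be told apart, and replicates 1 and 2 were on slide 1 and replicates 3 and 4 on slide 2.

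Between single animals the synthesis enzymes differed by large factors, and they did so together. Msmo1, the sterol C4-methyl oxidase, differed 15.03-fold between the highest and the lowest ovary, Hmgcs1, the HMG-CoA synthase, 8.36-fold, and Mvd, which makes isopentenyl diphosphate, 9.41-fold. Part of this range came from WT olaparib 3, and without it Msmo1 still differed 7.97-fold and Mvd 5.72-fold. The smallest ranges belonged to the lysosomal transporters Npc2 (1.99-fold) and Npc1 (2.04-fold), which hand cholesterol out of the lysosome.

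**Figure D1:**
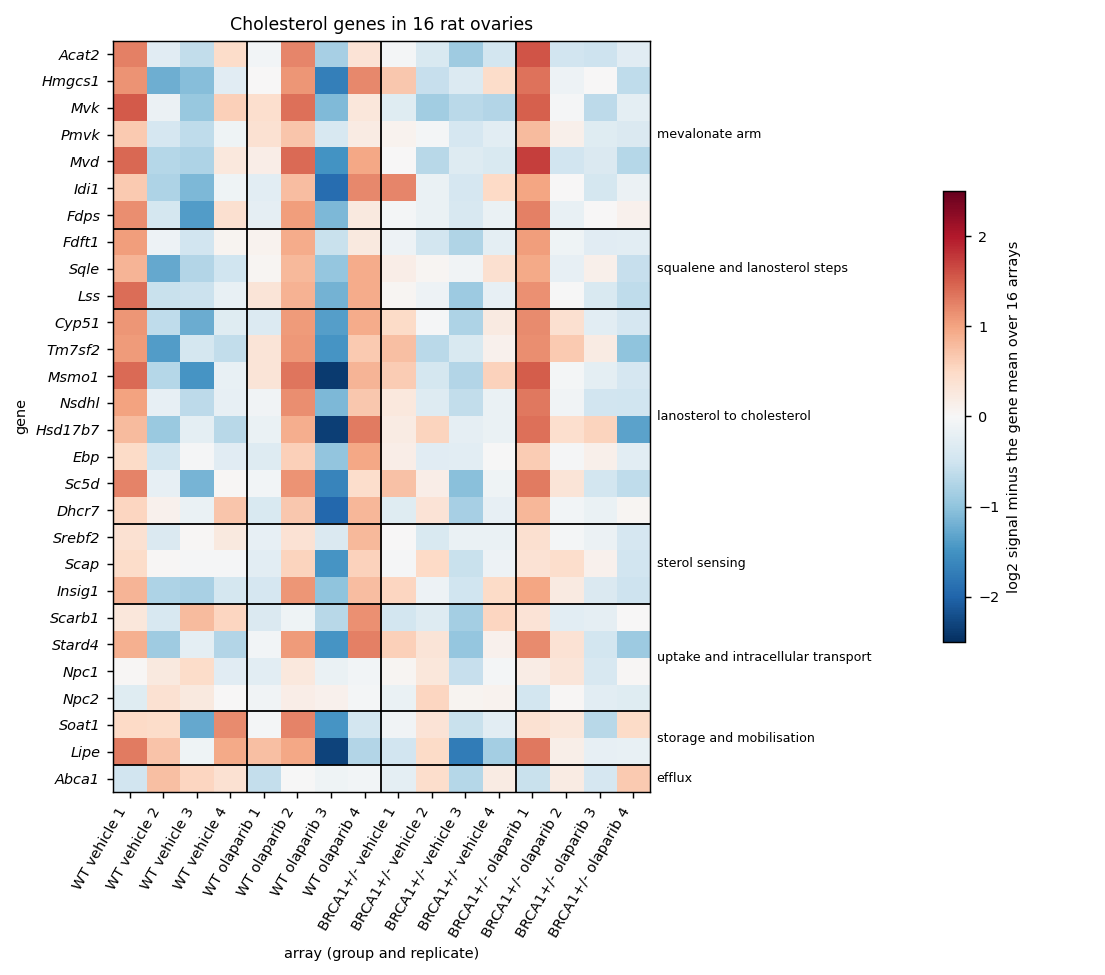
Colours give the log2 signal of each of the 28 genes (vertical axis, grouped by role) on each of the 16 arrays (horizontal axis, grouped by treatment and genotype), minus the gene's mean over all arrays. The columns of WT vehicle 1, WT olaparib 2, WT olaparib 4 and BRCA1+/- olaparib 1 are red for all 18 synthesis enzymes, and that of WT olaparib 3 is blue.

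The spread within groups was wider for these genes than for most others on the array. The within-group SD was above the median of all features (0.43 in log2 signal) for 25 of the 28 members, the exceptions being Srebf2 (0.36), Npc1 (0.31) and Npc2 (0.24). The median SD of the members was 0.79, a value exceeded by 16.2% of all features. Without the 6 arrays with a positive oviduct score, an alternative chosen after seeing the data, 23 of 28 members were above the median and the median SD of the members was 0.71. Group membership took up a median of 7.02% of a member's variance over the 16 arrays and 6.73% of a synthesis enzyme's, against 13.57% over all features. These shares are uncorrected, and group means take up part of the variance even where groups do not differ. The share was lowest for Sc5d (0.83%), the lathosterol desaturase, and highest for Npc2 (33.92%) and Lipe (26.86%).

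The first steps, from acetyl-CoA to farnesyl diphosphate, show the pattern. Hmgcs1 read 7.18, 4.83, 4.98 and 5.76 in WT vehicle replicates 1 to 4 and 6.06, 7.16, 4.35 and 7.26 in WT olaparib. It read 6.72, 5.48, 5.71 and 6.52 in BRCA1+/- vehicle and 7.41, 5.93, 6.07 and 5.42 in BRCA1+/- olaparib. Each group therefore spanned more than 1 log2 unit, and all 4 overlapped. Acat2, a thiolase that joins acetyl-CoA units, ran from 3.17 to 5.64 over the 16 ovaries, and the kinases Mvk and Pmvk, which phosphorylate mevalonate and its phosphate, from -0.01 to 2.64 and from 1.89 to 3.32. The decarboxylase Mvd ran from 2.29 to 5.53, the isomerase Idi1 from 3.07 to 6.20, and Fdps, which makes farnesyl diphosphate, from 2.47 to 5.13. Of these 7 enzymes, Idi1 had its maximum in BRCA1+/- vehicle 1 and Mvk in WT vehicle 1, while the other 5 were highest in BRCA1+/- olaparib 1.

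The squalene and lanosterol steps followed the same animals. Sqle, the squalene epoxidase, read 4.69, 2.56, 3.10 and 3.33 with vehicle and 3.89, 4.65, 2.87 and 4.77 with olaparib in WT rats. In BRCA1+/- rats it read 4.01, 3.89, 3.75 and 4.24 with vehicle and 4.79, 3.64, 3.97 and 3.26 with olaparib. The BRCA1+/- vehicle ovaries were the tightest group for Sqle, with an SD of 0.21 against 0.91 in WT vehicle (n = 4 each). Fdft1, the squalene synthase, ran from 1.60 to 3.39, and Lss, which closes the rings to lanosterol, from 1.47 to 4.05.

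Of the 8 enzymes that turn lanosterol into cholesterol, Msmo1 had the widest range. It read 8.10, 5.97, 5.20 and 6.49 in WT vehicle, 7.01, 8.03, 4.29 and 7.54 in WT olaparib, 7.32, 6.25, 5.96 and 7.25 in BRCA1+/- vehicle, and 8.20, 6.64, 6.44 and 6.26 in BRCA1+/- olaparib. The highest ovary of each WT group was over 8 and the lowest ovary of all was in WT olaparib. Hsd17b7, a 3-keto-sterol reductase, ranged over 13.3-fold, or 6.51-fold without WT olaparib 3. Cyp51, the lanosterol demethylase, ran from 2.97 to 5.53, Tm7sf2, a sterol C14 reductase, from 0.33 to 2.97, and Nsdhl, the C4 decarboxylase, from 0.33 to 2.77. Ebp, the sterol isomerase, ran from 2.92 to 4.88 and Sc5d from -1.36 to 1.59. Dhcr7, which carries out the last reduction to cholesterol, ran from 3.31 in WT olaparib 3 to 6.10 in BRCA1+/- olaparib 1. Its range was 6.92-fold, or 3.16-fold without that lowest ovary.

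The animals with high synthesis signals were spread over 3 of the groups. The mean score of the 18 enzymes was 1.20 in BRCA1+/- olaparib 1, 1.04 in WT vehicle 1, 1.01 in WT olaparib 2 and 0.73 in WT olaparib 4. On each of these 4 arrays, 18 of 18 enzymes were above their own mean over the 16 arrays, while 53.0% to 57.8% of all features were. The fifth highest score was 0.26, in BRCA1+/- vehicle 1, and the lowest were -1.37 in WT olaparib 3, -0.76 in WT vehicle 3, -0.58 in WT vehicle 2 and -0.56 in BRCA1+/- vehicle 3. On WT vehicle 3, WT olaparib 3 and BRCA1+/- vehicle 3, 0 of 18 enzymes were above their own mean. BRCA1+/- olaparib 1 was the highest of 16 for 14 enzymes, and WT olaparib 3 the lowest for 13.

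For 13 members, 10 of them synthesis enzymes along with Srebf2, Insig1 and Stard4, the 4 highest arrays were exactly these 4. That held for 239 of 20227 features (1.18%), and 10 further members had 3 of the 4, as did 9.77% of features. The arrays were picked by the synthesis enzymes' own signals, so these counts describe the set and test nothing. The 75th percentile signal of the 4 arrays was 400, 465, 241 and 362, within the range of the others, and their oviduct scores were all negative (-1.48 to -0.80). On the arrays with the lowest scores that signal was 394 (WT olaparib 3), 206 (WT vehicle 3), 394 (WT vehicle 2) and 202 (BRCA1+/- vehicle 3). WT olaparib 3, the lowest by synthesis score, had an oviduct score of 2.90, and its steroidogenic gene Star read 0.51 against 5.36 to 7.16 on the other 15 arrays. What part the cell mixture or the array signal has in the synthesis scores was not tested.

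**Figure D2:**
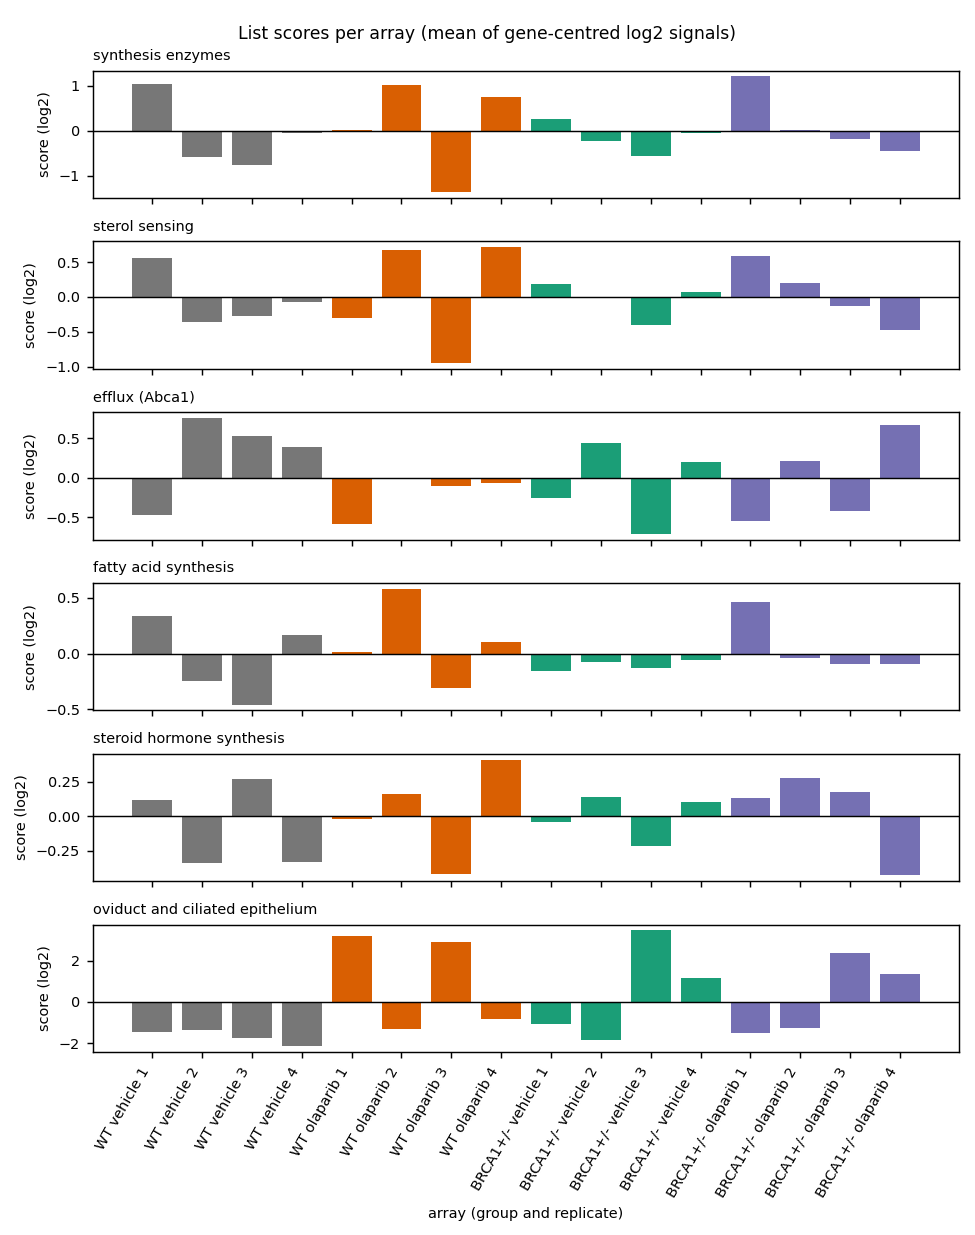
Bars give list scores per array (log2, mean of gene-centred signals) for synthesis, sensing, Abca1, fatty acid synthesis, steroid hormone synthesis and oviduct markers, coloured by group, each panel with its own vertical scale. The synthesis score is over 0.7 on 4 arrays in 3 groups, and the oviduct score is positive on 6 other arrays.

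Sterol sensing genes varied with the enzymes. Insig1 read 5.46, 3.85, 3.79 and 4.17 in WT vehicle and 4.19, 5.71, 3.60 and 5.38 in WT olaparib. It read 5.16, 4.49, 4.12 and 5.10 in BRCA1+/- vehicle and 5.61, 4.84, 4.26 and 4.10 in BRCA1+/- olaparib. Its 4 highest ovaries were the 4 with the highest synthesis scores, and all groups overlapped. Srebf2 had a narrow range, 2.75 to 3.98, with the same 4 ovaries on top, and Scap ran from 3.05 in WT olaparib 3 to 5.10 in WT olaparib 4.

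Uptake and transport genes split. Stard4, a carrier of cholesterol between membranes, ran from 0.95 to 3.68 and had the same 4 top ovaries as the enzymes. Scarb1, the HDL receptor, shared 1 of them. It read 5.69, 5.02, 6.20 and 5.96 in WT vehicle, 5.04, 5.30, 4.73 and 6.56 in WT olaparib, 4.96, 5.10, 4.56 and 5.95 in BRCA1+/- vehicle, and 5.76, 5.15, 5.18 and 5.43 in BRCA1+/- olaparib. The WT vehicle ovaries had the highest mean, 5.72 ± 0.51 (SD, n = 4), and BRCA1+/- vehicle the lowest, 5.14 ± 0.59 (SD, n = 4), with overlap. Npc1 ran from 2.35 to 3.38. Npc2, the lysosomal carrier that passes cholesterol to NPC1, read 2.42, 3.11, 2.97 and 2.73 in WT vehicle, 2.64, 2.89, 2.83 and 2.67 in WT olaparib, 2.55, 3.26, 2.80 and 2.82 in BRCA1+/- vehicle, and 2.27, 2.75, 2.45 and 2.41 in BRCA1+/- olaparib. In that last group 3 of 4 ovaries were below every BRCA1+/- vehicle ovary. The Npc2 probe is placed by the files, in build rn4, at chr6:108794590-108798310 on the minus strand.

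The storage genes had wide ranges of their own. Soat1, which esterifies cholesterol for storage, ran from -1.84 in WT olaparib 3 to 0.88 in WT olaparib 2. Lipe, the hormone-sensitive lipase that frees cholesterol from its esters in steroid-making cells and triglyceride stores in fat cells, read -1.44, -2.02, -2.85 and -1.79 in WT vehicle and -1.99, -1.77, -5.05 and -3.48 in WT olaparib. It read -3.22, -2.26, -4.50 and -3.59 in BRCA1+/- vehicle and -1.43, -2.60, -2.95 and -2.92 in BRCA1+/- olaparib. The Lipe probe lies at chr1:80667084-80667143 (rn4, minus strand). The 2 lowest values were in WT olaparib 3 and BRCA1+/- vehicle 3, where the oviduct scores were 2.90 and 3.45, whereas WT olaparib 1, with an oviduct score of 3.17, read -1.99. The adipocyte score, over 7 tested markers, was highest in WT olaparib 1 (4.12) and lowest in WT vehicle 2 (-2.99), where Lipe read -1.99 and -2.02. These are single arrays, and the part of oviduct or fat tissue in the Lipe values was not tested.

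Abca1, which exports cholesterol to apolipoprotein A-I, was the member whose highest ovaries shared none with the synthesis enzymes. It read 0.23, 1.46, 1.24 and 1.09 in WT vehicle, 0.12, 0.70, 0.60 and 0.64 in WT olaparib, 0.45, 1.15, -0.01 and 0.91 in BRCA1+/- vehicle, and 0.16, 0.91, 0.28 and 1.37 in BRCA1+/- olaparib. Sharing 0 of the 4 arrays was also the case for 30.3% of all features. Of the 4 ovaries with the highest synthesis scores, WT vehicle 1 and BRCA1+/- olaparib 1 were among the 4 lowest for Abca1. Abcg1, a second sterol exporter, was at its lowest of the 16 ovaries in WT vehicle 1, 1.49.

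**Figure D3:**
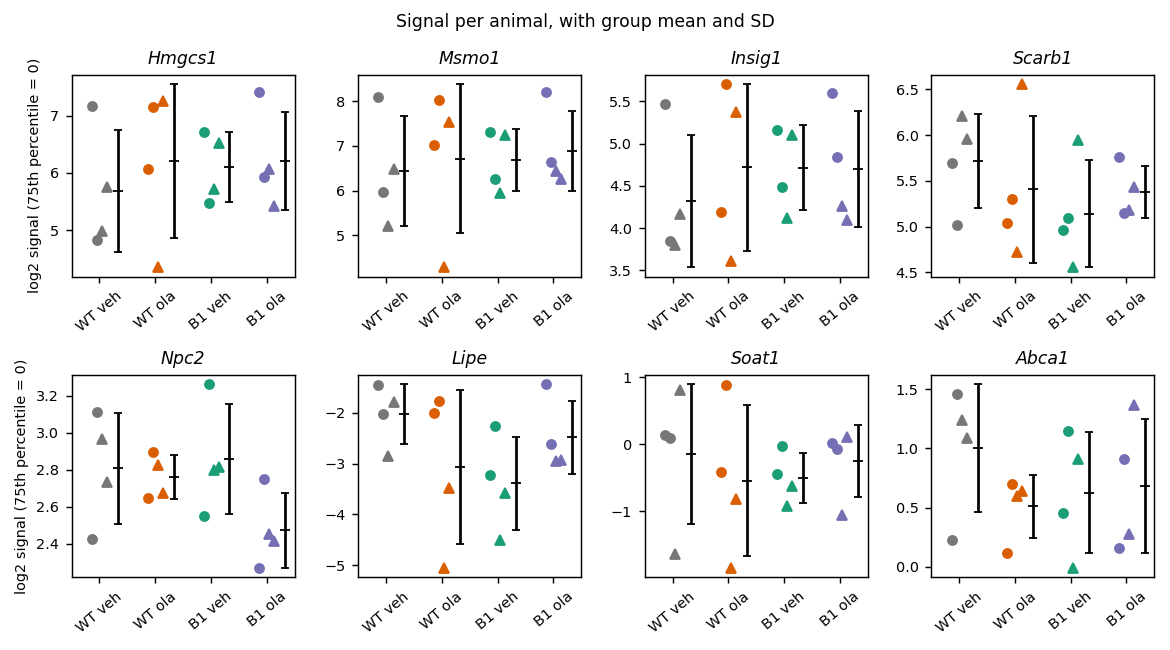
Points are the log2 signals (vertical axis, 75th percentile of the array = 0) of single ovaries by group, with circles for slide 1 and triangles for slide 2, and black bars are the group mean ± SD (n = 4). WT veh, WT ola, B1 veh and B1 ola stand for WT vehicle, WT olaparib, BRCA1+/- vehicle and BRCA1+/- olaparib, and the groups of all 8 genes overlap.

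Against vehicle in WT rats, olaparib left no member called. The comparison asks whether the drug changed these genes on an intact Brca1 background. The synthesis score averaged -0.09 ± 0.81 (SD, n = 4) in the vehicle ovaries and 0.10 ± 1.06 (SD, n = 4) in the treated ones. The difference was above 0 for 17 of 28 members, with a median of 0.11, while 39.2% of all features were above 0, with a median of -0.07. In limma with Benjamini-Hochberg adjustment, 0 of 28 members and 0% of all features had an adjusted p under 0.05. At an unadjusted p under 0.05 there were 0 members in either direction, against 2.26% of features higher and 2.07% lower, and for 0 members were the groups free of overlap (0.564% and 0.593% of features).

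The smallest p-values in that comparison belonged to Lipe, Abca1, Sqle and Pmvk. Lipe differed by -1.05 (SE 0.66, 95% interval -2.45 to 0.36, adjusted p = 0.964 in limma, exact permutation p = 0.286), and the difference was -0.39 without WT olaparib 3. Abca1 differed by -0.49 (SE 0.33, interval -1.20 to 0.22, adjusted p = 0.964 in limma, exact permutation p = 0.143) and was near equal in both slides (-0.44 and -0.55), while its second probe gave -0.58. Sqle differed by 0.63 (SE 0.47, interval -0.39 to 1.64, exact permutation p = 0.371) and Pmvk by 0.35 (SE 0.32, interval -0.33 to 1.03, exact permutation p = 0.343). Leaving out single ovaries moved Abca1 between -0.75 (without WT vehicle 1) and -0.34 (without WT vehicle 2). It moved Sqle between 0.34 (without WT vehicle 2) and 1.05 (without WT vehicle 1), and Pmvk between 0.18 (without WT vehicle 3) and 0.61 (without WT vehicle 1). The intervals of all 28 members held 0, and that of Msmo1, -1.37 to 1.92, left room for a change of more than 2-fold either way. The count of members above 0 was 9 without WT olaparib 2, 10 without WT olaparib 4 and 23 without WT olaparib 3, with medians of -0.16, -0.03 and 0.50. Without the arrays with a positive oviduct score, which left WT olaparib 2 and 4, the median was 0.76. Both of those arrays are among the 4 with the highest synthesis scores. In limma 6 members then had an unadjusted p under 0.05 (3.16% of features), with 0 called. In the same comparison all 11 oviduct markers were above 0 (median 2.57), with scores of -2.13 to -1.35 in the vehicle group and -1.31 to 3.17 in the olaparib group, and so were all 7 adipocyte markers (median 3.19) and 7 of 8 surface epithelium markers (median 1.18), while 2 of 10 macrophage markers were (median -0.62). Their part in the members' differences was not tested.

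In BRCA1+/- rats the differences leaned upward and none passed the test. The synthesis score averaged -0.15 ± 0.34 (SD, n = 4) in the vehicle ovaries and 0.14 ± 0.73 (SD, n = 4) in the treated ones. With olaparib the value was above vehicle for 24 of 28 members, with a median of 0.22, against 53.2% of all features and a median of 0.02. By the brightest probe, all 8 lanosterol-to-cholesterol enzymes were above 0 (0.16 to 0.40), as were 6 of 7 mevalonate enzymes (-0.18 to 0.79). Other kept probes gave -0.20 and -0.40 for Hsd17b7, -0.02 for Cyp51, 0.20 for Nsdhl and 0.32 for Sc5d. They gave -0.08 for Fdps, -0.55 for Idi1 and -0.14 to 0.83 for Acat2. With the mean over the probes of a gene, 21 members were above 0. In limma 0 members had an adjusted p under 0.05 (0% of features), and 0 had an unadjusted p under 0.05, against 0.534% of features higher and 0.638% lower. Groups free of overlap occurred for 0 members (0.499% and 0.608% of features). Single ovaries moved this count: without BRCA1+/- olaparib 1 the value was above 0 for 13 members and the median was -0.03, and without BRCA1+/- vehicle 3 it was above 0 for 16. Within slide 1 the median was 0.43 and within slide 2 it was 0.02. The oviduct markers had a median difference of -0.09 here and the adipocyte markers one of 0.01, while all 8 markers of surface epithelium and mesothelium, such as Krt19 and Msln, were above 0 (median 0.35). Their part was not tested.

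Npc2 had the smallest p in BRCA1+/- rats and went the other way from the enzymes. The mean of the vehicle ovaries was 2.86 ± 0.30 (SD, n = 4) and that of the treated ones 2.47 ± 0.20 (SD, n = 4). The difference was -0.39 (SE 0.19, interval -0.79 to 0.02, adjusted p = 1.0 in limma). The two-sided exact permutation p was 0.0571, where the smallest that 4 against 4 can give is 0.0286, and slides 1 and 2 gave -0.40 and -0.37. The difference was -0.25 without BRCA1+/- vehicle 2 and -0.19 without scaling between arrays. Same-numbered ovaries of these 2 groups deviated together, and within the 4 pairs of equal number Npc2 differed by -0.28, -0.51, -0.34 and -0.40. No pairing is stated in the sources, and differently numbered ovaries of these groups on the same slide deviated together too. With the pairs as a block and only these groups fitted, the adjusted p of Npc2 was 0.751 in limma. Lipe differed by 0.91 (SE 0.66, interval -0.49 to 2.32, exact permutation p = 0.229), Mvk by 0.79 (SE 0.58, interval -0.45 to 2.03, exact permutation p = 0.0571) and Fdft1 by 0.49 (SE 0.38, interval -0.32 to 1.30, exact permutation p = 0.2). Without BRCA1+/- olaparib 1, Mvk differed by 0.33, Fdft1 by 0.18 and Lipe by 0.56, and Lipe differed by 0.54 without BRCA1+/- vehicle 3. Mvk was higher with olaparib in 4 of 4 pairs, by 0.01 to 1.81, and Lipe and Fdft1 in 3 of 4.

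**Figure D4:**
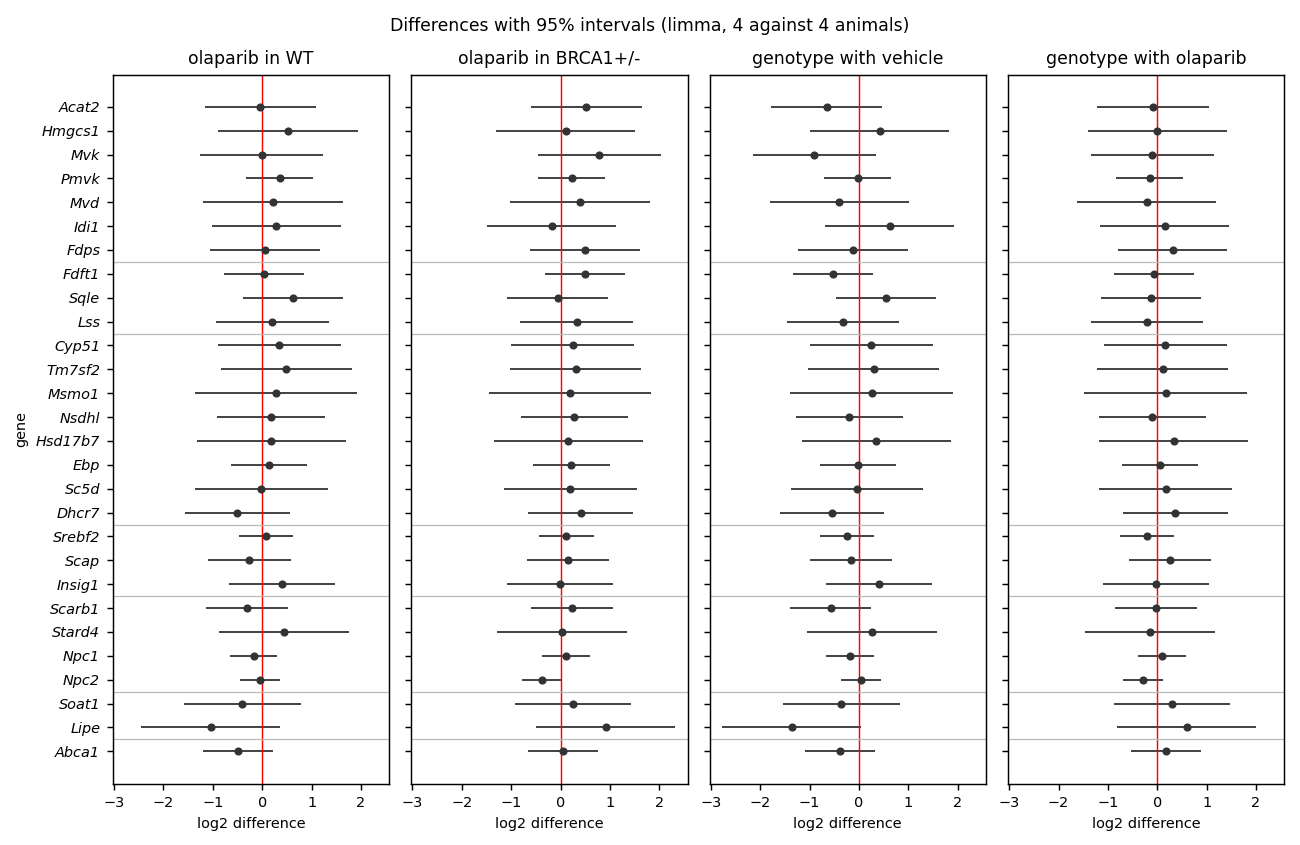
Points are log2 differences (horizontal axis) of the 28 genes (vertical axis, grouped by role) in 4 comparisons, and bars are 95% intervals from limma over 4 against 4 ovaries. All intervals hold 0, the nearest to leaving it being Npc2 with olaparib in BRCA1+/- rats and Lipe between the genotypes with vehicle.

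Averaged over both genotypes, the olaparib difference was above 0 for 20 of 28 members (median 0.21), against 45.6% of all features (median -0.02). By the brightest probe, all 7 mevalonate enzymes were above 0 (0.05 to 0.39), and so were the 3 of the squalene and lanosterol steps (0.26 to 0.28). Other kept probes gave -0.03 for Idi1, -0.08 for Fdps and -0.18 to 0.27 for Acat2. They gave 0.17 and 0.25 for Lss and 0.24 for Sqle. The limma fit called 0 members (0% of features), and 0 had an unadjusted p under 0.05 (0.415% of features higher, 0.905% lower). The smallest p-values were those of Npc2 (-0.22, SE 0.13, interval -0.50 to 0.07), Pmvk (0.29, SE 0.23, interval -0.19 to 0.77), Fdft1 (0.27, SE 0.27, interval -0.30 to 0.84) and Mvk (0.39, SE 0.41, interval -0.49 to 1.26). Adjusted p was 1.0 for all 4 in limma. The median was 0.35 within slide 1 and -0.01 within slide 2, and it was 0.02 without BRCA1+/- olaparib 1 and 0.39 without WT olaparib 3. Without BRCA1+/- olaparib 1, Pmvk differed by 0.17, Fdft1 by 0.11 and Mvk by 0.16, and Npc2 differed by -0.05 without scaling between arrays. In this comparison 11 of 11 oviduct (median 1.36), 7 of 7 adipocyte (1.60), 8 of 8 surface epithelium (0.76) and 1 of 10 macrophage markers (-0.36) were above 0, and their part was not tested.

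Between genotypes on vehicle, the share of members lower in BRCA1+/- ovaries was near that of all features, and the differences were inside the spread. The difference was above 0 for 10 of 28 members (median -0.14), against 42.2% of all features (median -0.06). Limma called 0 members (0% of features), and 0 had an unadjusted p under 0.05, against 1.93% of features higher and 3.57% lower. Groups free of overlap occurred for 0 members (1.25% and 2.19% of features). Without WT vehicle 1 the count above 0 was 16 and the median 0.14.

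Lipe stood first in the vehicle comparison, with -2.03 ± 0.60 (SD, n = 4) in WT and -3.39 ± 0.93 (SD, n = 4) in BRCA1+/- ovaries. The difference was -1.37 (SE 0.66, interval -2.77 to 0.04, adjusted p = 0.862 in limma), the exact permutation p was 0.0571, and a second Lipe probe gave -1.46. Without the arrays with a positive oviduct score it was -0.71, and with normexp background correction -0.69. Mvk differed by -0.90 (SE 0.58, interval -2.14 to 0.34, exact permutation p = 0.2), Scarb1 by -0.58 (SE 0.39, interval -1.40 to 0.25, exact permutation p = 0.2) and Fdft1 by -0.52 (SE 0.38, interval -1.34 to 0.29, exact permutation p = 0.2). Without WT vehicle 1, Mvk differed by -0.47 and Fdft1 by -0.22, and Scarb1 differed by -0.38 without BRCA1+/- vehicle 3. Here too all 11 oviduct markers were above 0 (median 2.23), as were 6 of 7 adipocyte markers (median 1.29) and 7 of 8 surface epithelium markers (median 0.52), and their part was not tested.

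Between genotypes on olaparib the members divided evenly, 14 of 28 above 0 with a median of 0.03, against 53.2% of all features and a median of 0.02. Limma called 0 members (0% of features), 0 had an unadjusted p under 0.05 (0.554% of features higher, 0.361% lower), and for 0 were the groups free of overlap (0.326% and 0.257%). Npc2 differed by -0.29 (SE 0.19, interval -0.69 to 0.12, exact permutation p = 0.0857), Lipe by 0.59 (SE 0.66, interval -0.81 to 2.00, exact permutation p = 0.6), Srebf2 by -0.21 (SE 0.26, interval -0.76 to 0.35, exact permutation p = 0.571) and Dhcr7 by 0.37 (SE 0.49, interval -0.69 to 1.42, exact permutation p = 0.657). Without WT olaparib 3, 2 of 28 members were above 0 and the median was -0.37, whereas without WT olaparib 2 it was 25 members and 0.27. Above 0 were 0 of 11 oviduct markers (median -0.80), 0 of 7 adipocyte markers (-1.23), 1 of 8 surface epithelium markers (-0.20) and 10 of 10 macrophage markers (0.41), and their part was not tested.

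The interaction asks whether the olaparib difference depended on genotype. It was above 0 for 17 of 28 members (median 0.11), against 57.8% of all features (median 0.08), and limma called 0 (0% of features), with 0 at an unadjusted p under 0.05 (2.03% of features higher, 1.4% lower). Lipe again had the smallest p: its olaparib difference was -1.05 in WT and 0.91 in BRCA1+/- rats, an interaction of 1.96 (SE 0.93, interval -0.03 to 3.95, adjusted p = 0.968 in limma). A second probe gave 1.98. The value was 0.87 on slide 1 and 3.05 on slide 2, 0.81 with normexp background correction, 1.30 without WT olaparib 3, and 1.32 without the arrays with a positive oviduct score. Dhcr7 gave 0.91 (SE 0.70, interval -0.59 to 2.40), Npc2 -0.34 (SE 0.27, interval -0.91 to 0.24) and Abca1 0.55 (SE 0.47, interval -0.45 to 1.55). Their adjusted p was 0.968 each. Dhcr7 gave 0.32 without WT olaparib 3, Npc2 -0.20 without BRCA1+/- vehicle 2 and Abca1 0.32 without BRCA1+/- olaparib 4. The second Abca1 probe gave an interaction of 0.21. With olaparib in BRCA1+/- rats that probe differed by -0.36, against 0.05 for the brightest one. The median of the members was -0.32 without WT olaparib 3. Above 0 in the interaction were 0 of 11 oviduct markers (median -2.49) and 0 of 7 adipocyte markers (-2.88). The same held for 1 of 8 surface epithelium markers (-0.74) and 8 of 10 macrophage markers (0.46). Their part, also in the Lipe values, was not tested.

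More of these genes leaned one way between the slides than in any comparison of groups. With group means in the fit, 26 of 28 members were lower on slide 2 than on slide 1, with a median difference of -0.60, while 45.2% of all features were higher on slide 2 and their median was -0.04. Scarb1 and Abca1 were the 2 that were higher. The oviduct score was positive on 5 of 8 arrays of slide 2 and on 1 of 8 of slide 1, and its part in the slide difference was not tested. In limma with Benjamini-Hochberg adjustment, 1 member was called, Lipe (-1.30, adjusted p = 0.0264), against 3.66% of features called lower, and 0 were called higher against 4.24%. Sc5d (-1.15, adjusted p = 0.0533) and Pmvk (-0.57, adjusted p = 0.0599) came next. The slides held different animals, so slide and animal cannot be told apart. With the slide as a block, 0 members were called in any of the 6 comparisons.

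The neighbouring pathways were read from lists of related genes. For the counts above 0 with olaparib in these lists, the share of all features was 39.2% in WT and 53.2% in BRCA1+/- rats. Of the 12 fatty acid synthesis genes, 9 were above 0 with olaparib in each genotype, with medians of 0.13 in WT and 0.25 in BRCA1+/- rats, and 0 passed the adjusted test. Elovl6, a fatty acid elongase, had the smallest p of that list in WT (0.83, SE 0.33, adjusted p = 0.964 in limma). Acly and Acaca, which make cytosolic acetyl-CoA and malonyl-CoA, Elovl6, the sterol scaffold gene Erg28 and the adrenodoxin gene Fdx1 had the same 4 top arrays as the synthesis enzymes. Acly read 5.44, 5.64, 5.52 and 5.57 there, in the order WT vehicle 1, WT olaparib 2, WT olaparib 4 and BRCA1+/- olaparib 1, and 4.48 to 5.08 elsewhere.

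Of the 9 oxysterol and LXR genes, 2 were above 0 with olaparib in WT and 6 in BRCA1+/- rats (medians -0.19 and 0.16), with 0 called. Cyp27a1, the sterol 27-hydroxylase, differed by -0.57 with olaparib in WT (SE 0.18, adjusted p = 0.964 in limma) and by 0.30 in BRCA1+/- rats, an interaction of 0.87 (SE 0.26, adjusted p = 0.968 in limma). It read 4.33, 4.43, 4.75 and 4.46 in WT vehicle, 3.80, 4.36, 3.56 and 3.99 in WT olaparib, 3.88, 4.40, 3.85 and 4.02 in BRCA1+/- vehicle, and 4.36, 4.28, 4.40 and 4.32 in BRCA1+/- olaparib. The WT olaparib ovaries were the lowest group for Cyp27a1, and 1 of the 4 reached the lower end of WT vehicle. Among the 12 helpers of sterol synthesis and sensing, 4 were above 0 with olaparib in WT and 7 in BRCA1+/- rats. Insig2, the second retention factor, was higher by 0.58 in BRCA1+/- than in WT on vehicle (SE 0.23, adjusted p = 0.862 in limma). Of the 14 tested genes of other cholesterol handling, 6 and 9 were above 0, and Cav1, a caveolar coat gene, differed by 0.60 with olaparib in WT (SE 0.21, adjusted p = 0.964 in limma). Of the 12 steroid hormone genes, 3 were above 0 in WT and 8 in BRCA1+/- rats, with medians of -0.14 and 0.07 and 0 called. Single genes of that list differed widely, from -1.40 to 3.44 in WT and from -1.30 to 0.77 in BRCA1+/- rats. Cyp17a1 had the smallest p of the list in WT (3.44, SE 1.70, adjusted p = 0.964 in limma). Its interaction was -4.73 (SE 2.40, adjusted p = 0.968 in limma).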

How the data were processed

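Total RNA of 16 ovaries was measured on single-colour (Cy3) Agilent arrays. Per the file headers, the authors extracted spot intensity values with Agilent Feature Extraction 10.7.1.1 (10.7 per the submitters' processing notes), and the processed signal was background-subtracted and detrended within each array, without scaling between arrays. The deposited value table holds log2 values. For the 43267 probes with a single spot it differed from the log2 processed signal by a constant for every array.

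Here 45598 non-control probes of 62976 spots were used, spots of a probe were averaged, and each array's 75th percentile was subtracted. Probes well above background in at least 3 of 4 arrays of a group were kept (26820), named through RefSeq tables, and reduced to the brightest probe of each gene (20227 features, 16352 with a name). Of 48 member probes 47 were kept. Probe positions in the files are those of build rn4, and the promoters are from RefSeq GRCr8.

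One mean per group was estimated over all 16 arrays using limma 3.58.1 (R 4.3.3) with 12 residual and 2.43 prior degrees of freedom, for 6 comparisons and Benjamini-Hochberg adjustment over all features. The comparisons share groups. Same-numbered arrays share a slide and a row. Their deviations from the group means correlated over 0.1 in all 4 pairs of the BRCA1+/- groups (0.392 to 0.714), and so did other pairs on the same slide (0.304 to 0.510), which is a hint from the data and not a stated pairing. The sources do not describe how the samples of a group relate beyond separate animals, so p-values measure the spread between these samples, and 4 arrays a group limit the precision. The fit was tested on simulated data. The members and lists were chosen with earlier results of these data known. All members are described, the 4 with the smallest p in each comparison are given with full statistics, and up to 2 per neighbouring list. Genes of other lists named for sharing the top arrays, Star and Abcg1 were picked after their values were seen, and so was the comparison of slides. Alternatives were other scalings, normexp background correction with an offset of 50, filters, probe choice, blocks, single slides and leaving out arrays.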

Additional observations from a re-analysis of the deposited data

Results flagged for a closer look

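Within groups of 4 ovaries, 5 of 112 gene and group sets held 1 sample far from the other 3, and chance alone marks about 1 in 20 such sets. In BRCA1+/- olaparib 1 the log2 signal was 5.636 for Acat2 (the others 3.547 to 3.793), 5.529 for Mvd (3.078 to 3.424) and 3.389 for Fdft1 (2.056 to 2.247). Scap read 4.980 in WT vehicle 1 (4.497 to 4.554), and Soat1 read -1.050 in BRCA1+/- olaparib 3 (-0.075 to 0.107), where the oviduct marker score was 2.34.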

How the results depend on the processing

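No member was called in any comparison that 14 alternatives gave, or when each of the 16 arrays was left out. Fitting only the groups compared gave 4 of the 6 comparisons, and with the block added it was run for 1. Over all of these alternatives the lowest adjusted p (limma) of a named difference was 0.479. With the number as a replicate block over 16 arrays, 0 members were called and the medians were the same. Each comparison then had 1 member at an unadjusted p under 0.05, Lipe (olaparib in WT, genotype on vehicle, interaction; 7.94%, 8.93% and 6.95% of features) or Npc2 (olaparib in BRCA1+/-, both genotypes, genotype on olaparib; 2.41%, 2.56% and 1.95%). With the block and only the BRCA1+/- groups, chosen after seeing the data, there were 2, Mvk and Npc2 (6.3% of features), and 0 called. For the other pairs of groups, 1 to 3 of 4 correlations between same-numbered arrays were over 0.1. Whether those arrays are paired is not known. The median difference with olaparib in WT moved from 0.109 to 0.758 without the 6 arrays with a positive oviduct score. In limma 6 members then had an unadjusted p under 0.05 in that comparison (3.16% of features), and 3 over both genotypes (2.25%), with 0 called. In the genotype comparison on olaparib, Dhcr7 ran from -0.217 without WT olaparib replicate 3 to 0.709 without replicate 4 and was -0.370 without the oviduct-positive arrays, Srebf2 was 0.095 within slide 1 and ran from -0.375 to 0.012 when WT olaparib replicate 3 or 4 was left out, and Lipe was -0.136 within slide 1 and ran from -0.065 without WT olaparib replicate 3 to 1.029 without replicate 2. The Dhcr7 interaction turned to -0.097 without the oviduct-positive arrays. The cause was not tested. Leaving out single arrays moved the members' median between -0.159 and 0.504 (olaparib in WT), -0.025 and 0.381 (olaparib in BRCA1+/-), 0.019 and 0.392 (both), -0.229 and 0.139 (genotype on vehicle), -0.370 and 0.268 (genotype on olaparib) and -0.319 and 0.366 (interaction). Without scaling between arrays the median of all features with olaparib shifted from -0.07 to 0.06 in WT and from 0.02 to 0.22 in BRCA1+/- rats, and 21 and 27 members were above 0.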
